A study of Mus musculus with 21 samples.

Results

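Serum amyloids, orosomucoids, lipocalin 2, haptoglobin and hemopexin are secreted proteins whose genes the liver switches on in an acute-phase response. The data describe 10 of these genes, *Saa1*, *Saa2*, *Saa3*, *Saa4*, *Orm1*, *Orm2*, *Orm3*, *Lcn2*, *Hp* and *Hpx*, out of 46078 gene identifiers counted in mouse liver. They were chosen by symbol in the GENCODE M21 annotation of GRCm38, after earlier results of these data had shown members low in cysteine-deprived knockouts and high in WT without cysteine. All 10 were found, all 10 had enough reads to be tested, and none overlapped another annotated gene. Levels are CPM, a library's counts scaled to a common total after TMM adjustment, given to 3 significant digits and in replicate order.

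The study removed an amino acid from the diet of mice with and without cystathionine γ-lyase (CSE, gene *Cth*), the enzyme that makes cysteine from cystathionine. The bulk RNA libraries fell into 6 groups: WT on the control diet (WT CTR, n = 3), KO on the control diet (KO CTR, n = 4), WT without dietary cysteine (WT noCys, n = 4), KO without cysteine (KO noCys, n = 3, numbered 1, 3 and 4), WT without tryptophan (WT noTrp, n = 2) and KO without tryptophan (KO noTrp, n = 5). KO stands for the genotype labelled cse, *Cse* knockout mice on a 129/C57BL/6 background, and WT is the label of the comparison animals, which the study's text calls heterozygous (Cse+/-), so both alleles may not have been intact. All groups were calorie restricted, on a defined amino acid diet in which the other amino acids were raised when 1 was left out. Tryptophan is an essential amino acid, and its removal served as a comparison for that of cysteine.

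In an acute-phase response, IL-6 acting through JAK kinases and STAT3, and IL-1 and TNF acting through NF-κB, raise transcription of these genes in hepatocytes, together with C/EBP factors and glucocorticoids. SAA1 and SAA2 ride on high-density lipoprotein and are the most inducible of the group, SAA3 is made mainly by macrophages and fat, and SAA4 is the constitutive form. Orosomucoids are plasma carriers of lipophilic molecules, lipocalin 2 captures bacterial siderophores, haptoglobin binds free haemoglobin, and hemopexin binds free haem.

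The 4 serum amyloid genes stood in a cluster on chromosome 7 and the 3 orosomucoid genes in a cluster on chromosome 4. In the orosomucoid cluster, the close neighbours *Orm2* and *Orm3* did not always move together. In GRCm38 the amyloid genes are *Saa1* at chr7:46740497-46742980, *Saa3* at chr7:46711998-46715700, *Saa4* at chr7:46727998-46732603 on the minus strand and *Saa2* at chr7:46751790-46754313 on the plus strand. The orosomucoid genes are *Orm1* at chr4:63344560-63348163, *Orm3* at chr4:63356162-63359511 and *Orm2* at chr4:63362449-63365878, all on the plus strand. The remaining members, *Lcn2* at chr2:32384633-32388252, *Hp* at chr8:109575128-109579172 and *Hpx* at chr7:105591613-105600137 on the minus strand, lie outside both clusters. All are protein-coding. The coding sequences of *Saa1* and *Saa2* were 95.1% identical, and those of *Orm1* and *Orm2* 89.9%, of *Orm2* and *Orm3* 89.0%. Of all 61-base stretches of its transcript, the study's read length, *Saa1* shared 9.47% with *Saa2*, *Saa2* 9.52% with *Saa1*, and *Orm1* shared 17.5% with *Orm2* or *Orm3*, while *Orm2* shared 18.9%, *Orm3* 2.1% and the other members none with another member. Reads from shared stretches could have been counted for either gene or for neither, so the smaller of 2 such genes is the less certain value.

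The 250 bases before the RefSeq start site (GRCm38.p6) are shown for 5 members: *Saa1* and *Saa2* as the pair that moved most, *Orm2* and *Orm3* as close neighbours that parted without cysteine, and *Lcn2*, which stayed up where *Saa1* was low. Sequences run 5′ to 3′ on the gene's strand, and capitals mark a C/EBP motif, TTNNGCAA or its reverse complement. The positions are chr7:46742981-46743230 (minus strand) for *Saa1*, chr7:46751583-46751832 (plus) for *Saa2*, chr4:63362199-63362448 (plus) for *Orm2*, chr4:63355908-63356157 (plus) for *Orm3* and chr2:32387740-32387989 (minus) for *Lcn2*.
Saa1: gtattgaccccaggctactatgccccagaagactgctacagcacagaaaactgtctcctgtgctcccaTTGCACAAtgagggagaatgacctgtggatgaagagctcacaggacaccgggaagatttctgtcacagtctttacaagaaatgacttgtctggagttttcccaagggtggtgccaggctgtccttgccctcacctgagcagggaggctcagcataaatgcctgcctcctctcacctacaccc
Saa2: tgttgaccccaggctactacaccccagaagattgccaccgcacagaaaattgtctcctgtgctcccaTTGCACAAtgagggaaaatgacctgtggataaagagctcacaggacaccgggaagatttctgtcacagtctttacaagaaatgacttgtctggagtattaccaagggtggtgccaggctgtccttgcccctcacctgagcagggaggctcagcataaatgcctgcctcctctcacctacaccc
Orm2: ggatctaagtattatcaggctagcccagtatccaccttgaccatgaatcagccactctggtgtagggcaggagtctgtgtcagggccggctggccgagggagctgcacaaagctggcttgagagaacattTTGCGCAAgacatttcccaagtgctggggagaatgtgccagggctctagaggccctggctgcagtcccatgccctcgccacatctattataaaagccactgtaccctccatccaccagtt
Orm3: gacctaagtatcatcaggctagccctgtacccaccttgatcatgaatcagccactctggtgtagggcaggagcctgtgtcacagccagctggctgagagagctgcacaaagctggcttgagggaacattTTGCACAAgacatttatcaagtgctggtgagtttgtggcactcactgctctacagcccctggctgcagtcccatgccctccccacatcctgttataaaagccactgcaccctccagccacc
Lcn2: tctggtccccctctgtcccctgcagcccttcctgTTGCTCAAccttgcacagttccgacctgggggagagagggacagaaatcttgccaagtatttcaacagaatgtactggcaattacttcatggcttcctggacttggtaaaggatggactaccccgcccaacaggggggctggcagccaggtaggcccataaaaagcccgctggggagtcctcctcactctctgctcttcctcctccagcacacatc

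Promoter windows of 300 bases, from 250 before the start to 50 after it, were at hand for 8 of the 10 members, all but *Orm1* and *Hp*. The C/EBP motif was in 8 of 8, against 10.8% of 32544 mouse promoter windows of that length. Counted from the start site, its first base lay at -182 in *Saa1*, -183 in *Saa2*, -120 in *Orm2*, -121 in *Orm3* and -216 in *Lcn2*, and it was also found in *Saa3*, *Saa4* and *Hpx*. The STAT motif TTCNNNGAA was in 0 of 8 (8.33% of all windows), and so was the NF-κB consensus (5.91%). The windows of *Saa1* and *Saa2* were 96.0% identical, and those of *Orm2* and *Orm3* 89.5%. A match of letters is not evidence of a bound factor, and the windows are short.

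Library totals ran from 8889951 to 27230852 counts, and mitochondrial genes took 3.41% to 7.67% of them. The deleted gene *Cth* matched the labels in every library, at 6.34 to 15 CPM in the 12 KO libraries and 108 to 452 CPM in the 9 WT libraries. All 10 hepatocyte markers were detected in each library, with a summed level of 39961 to 83328 CPM. Kupffer cell markers (8 of 8 detected) summed to 95.3 to 297 CPM. Neutrophil markers summed to 0.431 to 3.16 CPM. Of these, *Mpo* was at 0 in 17 libraries and *Elane* in 11, but *S100a8* and *S100a9* in only 1 each and *Retnlg* in 2. Adipocyte markers summed to 8.31 to 22.7 CPM, with *Fabp4* at 8.20 to 22.0 CPM and *Cfd* at up to 5.94 CPM. In bulk tissue, fewer cells of a type and less RNA per cell cannot be told apart.

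Single livers were the highest of their group for most members, and comparisons below are given with and without those that stood far above. KO CTR replicate 4 was the highest of its group for 10 of 10 members, KO noTrp replicate 1 for 9 of 10, and WT noCys replicate 1 for 8 of 10, being the lowest for *Saa4*. KO noCys replicate 1 was the highest of its 3 for 8 of 10, and WT CTR replicate 3 for 7 of 10. Against the median of the rest of its group, WT noCys replicate 1 had 9.83 times the *Saa1* level, 14.2 times the *Saa2* level, 16.1 times the *Saa3* level and 21.4 times the *Lcn2* level. KO noTrp replicate 1 had 8.85 times the *Saa1* level and 11.7 times the *Lcn2* level, and KO CTR replicate 4 had 8.24 and 5.47 times. The members together took 0.552% to 0.618% of all counts in WT CTR and up to 2.97% in WT noCys replicate 1.

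**Figure D1:**
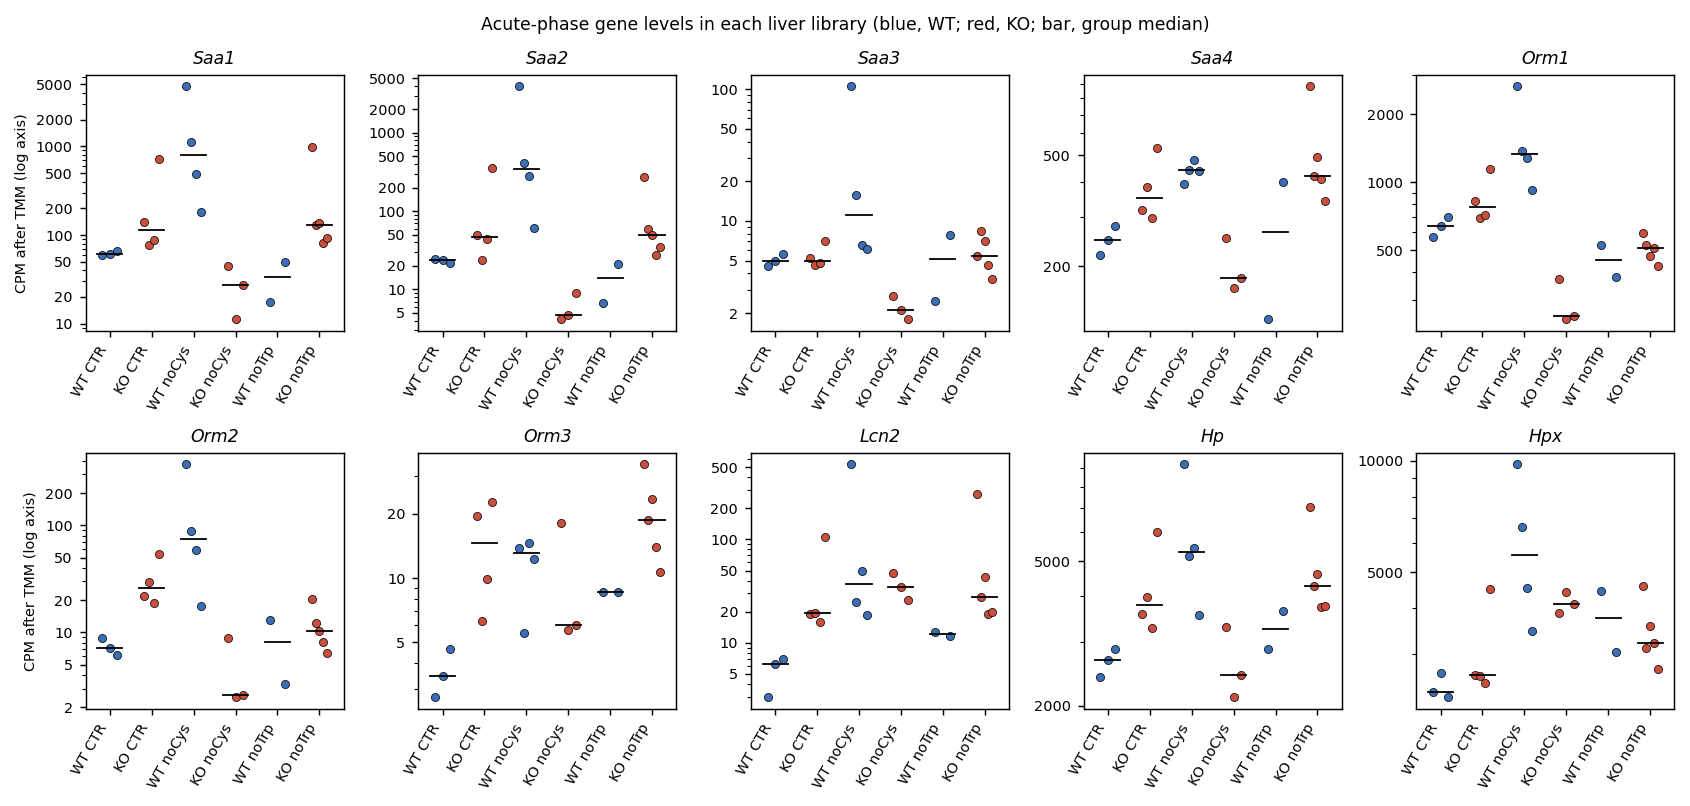
CPM after TMM on log axes, 1 panel per gene and 1 point per liver library (blue, WT; red, KO; bar, group median). KO noCys was the group of lowest mean for *Saa1*, *Saa2*, *Saa3*, *Saa4*, *Orm1*, *Orm2* and *Hp*, while *Orm3*, *Lcn2* and *Hpx* were lowest in WT CTR.

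Levels per kilobase of transcript set the order of the genes. *Hp*, *Hpx* and *Orm1* were the most abundant in WT CTR, with means of 1968, 1632 and 824 CPM per kilobase, and *Orm3* was the least, at 4.69. *Saa1* at 102 and *Saa2* at 38.7 CPM per kilobase stood below the constitutive *Saa4* at 119. In WT noCys *Saa1* was at 7849, 1840, 799 and 295 CPM per kilobase and *Saa2* at 6519, 684, 458 and 99.9, against 188 to 229 for *Saa4*. *Saa1* was thus above *Saa4* in all 4 of these livers and *Saa2* in 3. The spread between libraries of a group also ranked the genes, since the pooled within-group SD on the log2 scale was 1.55 for *Saa2*, 1.43 for *Lcn2* and 1.42 for *Saa1*, but 0.37 for *Orm1* and 0.39 for both *Hp* and *Hpx*.

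In WT liver, removing cysteine came with higher levels of every member. Each of the 10 genes was higher in all 4 WT noCys libraries than in all 3 WT CTR libraries, with a median difference of 2.22 on the log2 scale. The serum amyloids *Saa1* and *Saa2*, *Orm2* and *Lcn2* differed most, and the constitutive *Saa4*, with *Hp*, *Orm1* and *Hpx*, least. Over all 14370 genes tested, 9.15% were separated in this direction, 0.661% were called (adjusted p under 0.05) in either, and the median difference was -0.01. The members were proposed with this contrast known, so no test of them is given.

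*Saa1* was at 59.3, 61.7 and 65.4 CPM in WT CTR and at 4780, 1120, 486 and 180 CPM in WT noCys. The 3 control livers were nearly alike, and the 4 cysteine-free livers differed among themselves by 26.6 times, yet the lowest of them was above every control. The fitted difference was 4.72 (SE 1.20) on the log2 scale. *Saa2* was at 24.5, 24.0 and 21.8 CPM in WT CTR and 3950, 415, 278 and 60.5 CPM in WT noCys. It followed the same order of livers over a wider range, and its difference was 5.65 (SE 1.35).

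*Saa3* rested on 1 liver for most of its difference, with 105, 15.8, 6.55 and 6.10 CPM in WT noCys against 4.55 to 5.58 CPM in WT CTR (log2 difference 2.75, SE 0.75). *Saa4* had 393, 443, 479 and 441 CPM against 219, 248 and 279 CPM, a difference of 0.82 (SE 0.32). It was the tightest of the 4 amyloids, and the liver with the highest *Saa1* held its lowest value. Among the orosomucoids, *Orm2* was at 370, 88.6, 59.2 and 17.5 CPM in WT noCys and 6.16 to 8.90 CPM in WT CTR, a difference of 4.17 (SE 0.82). *Orm1* was at 2670, 1380, 1280 and 929 CPM against 573, 643 and 700 CPM, and differed by 1.29 (SE 0.27). *Orm1* and *Orm2* kept the order of the livers seen for *Saa1*, whereas *Orm3*, at 13.9, 5.52, 14.5 and 12.3 CPM against 2.75 to 4.65 CPM, did not (difference 1.70, SE 0.53).

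The siderophore binder *Lcn2* was at 2.97, 6.26 and 6.97 CPM in WT CTR and 530, 24.8, 49.3 and 18.4 CPM in WT noCys, a log2 difference of 4.85 (SE 1.32). *Hp* was at 9210, 5150, 5420 and 3550 CPM in WT noCys against 2400, 2670 and 2870 CPM (1.14, SE 0.28), and *Hpx* at 9780, 6610, 4540 and 3460 CPM against 2370, 2680 and 2290 CPM (1.32, SE 0.28). These 2 scavengers of haemoglobin and haem were already abundant and moved by far less than *Lcn2*. Without WT noCys replicate 1 all 10 members were still higher, but the median difference was 1.29, and it was 3.26 for *Saa1*, 3.41 for *Saa2*, 0.89 for *Saa3*, 2.88 for *Orm2* and 2.50 for *Lcn2*. Summed neutrophil markers were 2.16 to 3.16 CPM in WT noCys and 0.744 to 1.73 CPM in WT CTR, and their part in the *Lcn2* values was not tested. The 9 hepatocyte markers other than *Alb* summed to 15728 to 16463 CPM in WT noCys and 11774 to 14059 CPM in WT CTR. Their part in the member differences was not tested.

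**Figure D2:**
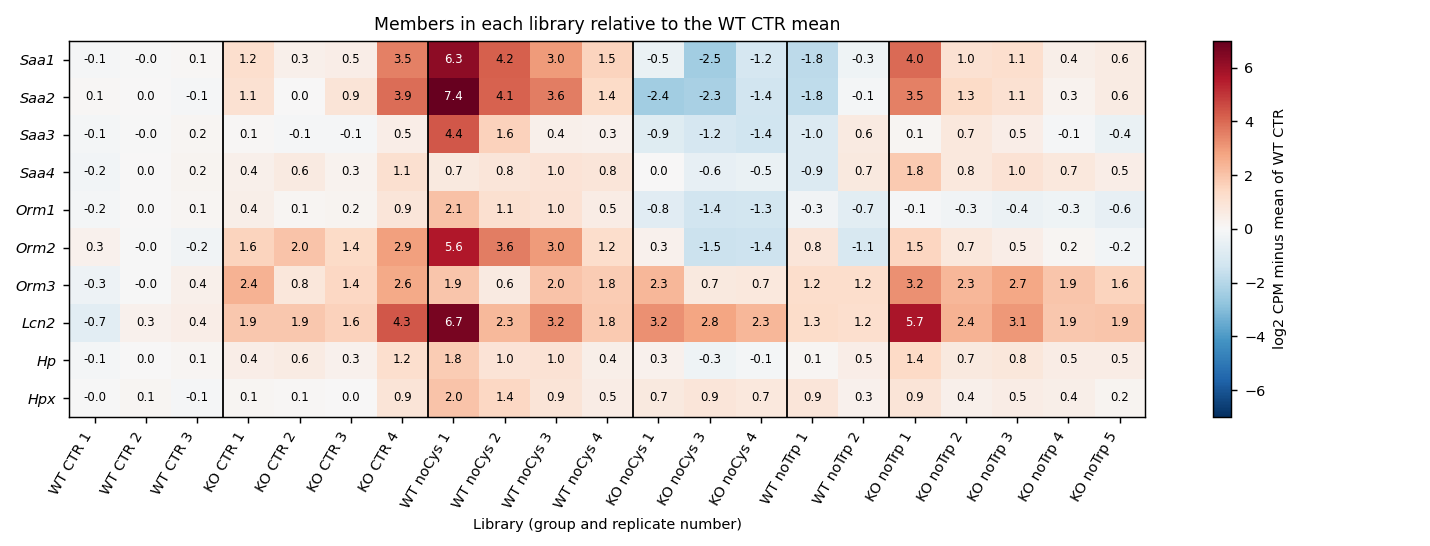
Log2 CPM of each member in each library minus the WT CTR mean of that gene, with the value printed in each cell (red, higher; blue, lower). WT noCys replicate 1 reached 7.39 for *Saa2*, 6.67 for *Lcn2* and 6.26 for *Saa1*, and *Saa1*, *Saa2*, *Saa3* and *Orm1* were below the WT CTR mean in all 3 KO noCys libraries.

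In KO liver, removing cysteine went the other way for the inducible serum amyloids and 2 of the 3 orosomucoids. Of the 10 members, 9 were lower in KO noCys than in KO CTR, with a median difference of -1.13 on the log2 scale, against 0.00 over all genes. The KO noCys libraries had a part in proposing the members, so the values are a description and no p of a member is given. 5 members (*Saa1*, *Saa2*, *Saa4*, *Orm1* and *Orm2*) lay past the edgeR threshold (adjusted p under 0.05) that 20.2% of all genes passed, which is not independent evidence. 6 of the 10 members were lower with no overlap, as were 13.2% of all genes.

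*Saa1* was at 45.1, 11.2 and 27.3 CPM in KO noCys, and at 142, 78.0, 87.1 and 718 CPM in KO CTR. All 3 deprived livers were below every KO control, and below the WT controls as well. It differed by -3.22 on the log2 scale (SE 1.12). *Saa2* was at 4.17, 4.67 and 9.06 CPM against 49.4, 23.9, 44.1 and 358 CPM and differed by -4.29 (SE 1.30). *Saa4*, the constitutive amyloid, was at 251, 167 and 180 CPM against 317, 384, 299 and 529 CPM and differed by -0.94 (SE 0.32). *Saa3*, at 2.71, 2.1 and 1.80 CPM against 4.64 to 7.04 CPM, was lower without overlap, with a difference of -1.32 (SE 0.81).

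*Orm1* was at 373, 248 and 257 CPM in KO noCys and 830, 696, 718 and 1150 CPM in KO CTR, so the highest deprived liver was well under the lowest control. It differed by -1.54 (SE 0.27). *Orm2* was at 8.91, 2.48 and 2.64 CPM against 21.8, 29.8, 19.0 and 53.8 CPM and differed by -2.86 (SE 0.82). *Orm3*, whose promoter window was 89.5% identical to that of *Orm2*, was at 18.2, 5.72 and 6.04 CPM against 19.5, 6.32, 9.84 and 22.7 CPM. Its groups overlapped, and the difference was -0.59 (SE 0.47).

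*Lcn2*, *Hp* and *Hpx* overlapped between the groups. *Lcn2* was at 46.9, 35.0 and 25.8 CPM in KO noCys, above 3 of the 4 KO CTR livers at 19.2, 19.3 and 16.0 CPM and below the remaining one at 105 CPM (difference -0.14, SE 1.04). Its sign was not stable, at 0.96 without KO CTR replicate 4, 0.05 without KO noCys replicate 4 and 0.08 by limma-voom. *Hp* was at 3300, 2110 and 2440 CPM against 3580, 3980, 3280 and 6010 CPM (difference -0.69, SE 0.28). *Hpx* was the 1 member above its controls with all libraries, at 3870, 4430 and 4100 CPM against 2640, 2620, 2500 and 4510 CPM (difference 0.43, SE 0.27).

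The values changed with single livers left out. Without KO CTR replicate 4 the differences were -1.90 for *Saa1*, -2.70 for *Saa2*, -0.75 for *Saa4*, -1.37 for *Orm1* and -2.49 for *Orm2*, and 2 members (*Orm1* and *Orm2*) were past the threshold. That number was 4 without KO CTR replicate 1 or 2, 5 without KO CTR replicate 3, 3 without KO noCys replicate 1 and 1, *Orm1*, without KO noCys replicate 3 or 4. Folds moved less than that number when a KO noCys liver was left out, with *Saa1* at -3.74, -2.83 and -3.21 and *Saa2* at -4.12, -4.12 and -4.73 without replicates 1, 3 and 4. *Orm1* was past it in 7 of 7 such fits, *Orm2* in 5, *Saa2* and *Saa4* in 3 each and *Saa1* in 2. Summed hepatocyte markers spanned 39961 to 62525 CPM in KO noCys and 58785 to 66830 CPM in KO CTR, or 15295 to 17887 and 13095 to 15729 CPM without *Alb*, and their part in these differences was not tested. Summed Kupffer cell markers, at 118 to 163 CPM in KO noCys, stayed inside the 105 to 227 CPM of KO CTR.

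**Figure D3:**
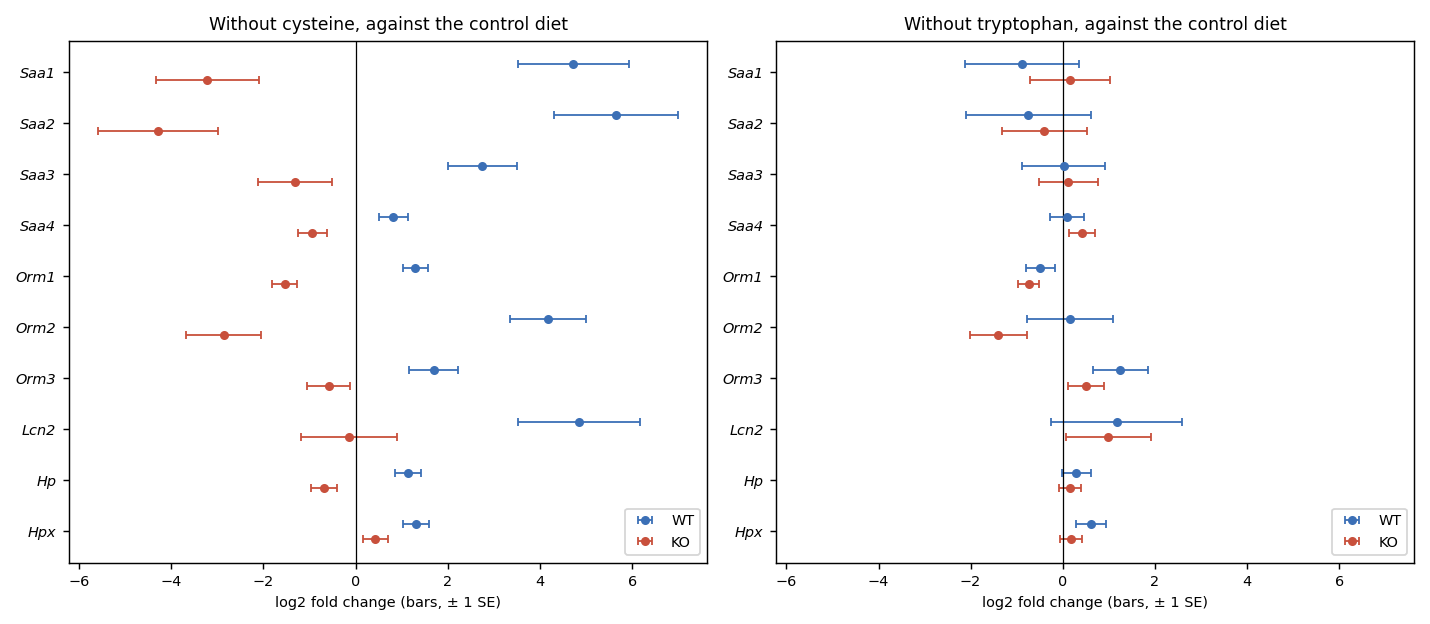
Log2 fold change of each member when cysteine (left) or tryptophan (right) was left out, against the control diet of the same genotype (blue, WT; red, KO; bars, ± 1 SE of the edgeR fit). Without cysteine the WT values lie at 0.82 to 5.65 and the KO values at -4.29 to 0.43, whereas without tryptophan both genotypes lie at -1.40 to 1.25.

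Set against each other on the cysteine-free diet, KO livers held less of every member in the fit. All 10 differences were below 0, with a median of -2.27, and 7 members (*Saa1*, *Saa2*, *Saa3*, *Saa4*, *Orm1*, *Orm2* and *Hp*) had all 3 KO noCys libraries under all 4 WT noCys libraries. Over all genes 18.1% were separated in this direction and 28.2% were called in either. The differences were -5.90 (SE 1.28) for *Saa1*, -7.60 (SE 1.5) for *Saa2*, -3.97 (SE 0.81) for *Saa3* and -1.14 (SE 0.32) for *Saa4*. They were -2.42 (SE 0.28) for *Orm1*, -4.98 (SE 0.87) for *Orm2* and -1.16 (SE 0.28) for *Hp*. *Orm3* (-0.29, SE 0.47), *Hpx* (-0.56, SE 0.27) and *Lcn2* (-2.13, SE 1.09) overlapped between the genotypes. Without WT noCys replicate 1 the median was -1.61, with *Saa1* at -4.44, *Saa2* at -5.38, *Saa3* at -2.11, *Orm1* at -2.04 and *Orm2* at -3.67, and *Lcn2* stood at 0.22, on the other side of 0. Summed hepatocyte markers were 75395 to 82130 CPM in WT noCys, above all KO noCys livers, but the 9 markers other than *Alb* summed to 15728 to 16463 CPM there and 15295 to 17887 CPM in KO noCys. Summed adipocyte markers were 8.31 to 10.7 CPM in KO noCys and 13.4 to 22.2 CPM in WT noCys, and neutrophil markers 0.562, 3.15 and 0.431 CPM against 2.16 to 3.16 CPM. The part of either list was not tested. No test is given, since the members were proposed with this contrast known.

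The diet difference in KO minus that in WT was below 0 for all 10 members, with a median of -3.45 and a range from -9.94 for *Saa2* to -0.89 for *Hpx*. *Saa1* (-7.94), *Orm2* (-7.04), *Lcn2* (-4.99) and *Saa3* (-4.07) lay between, and *Orm1* (-2.83), *Orm3* (-2.28), *Hp* (-1.83) and *Saa4* (-1.76) were nearer 0. Without WT noCys replicate 1 the median was -2.33. Of the 10, 6 were separated upwards in WT and downwards in KO (*Saa1*, *Saa2*, *Saa3*, *Saa4*, *Orm1* and *Orm2*), as were 0.828% of all genes. These differences contain both contrasts above and share their libraries, so they are a description.

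The ratio of members within a liver set KO noCys apart from the other groups. *Lcn2* relative to *Saa1*, both per kilobase, was 0.698, 2.09 and 0.634 in KO noCys, against 0.0148 to 0.486 in the 18 other libraries. *Hpx* relative to *Orm1* was 5.37, 9.24 and 8.25 in KO noCys. It was 3.05 to 4.35 in the 7 tryptophan-free libraries of both genotypes and 1.64 to 2.48 in the rest. *Orm3* relative to *Orm2* was 2.04 to 2.31 in KO noCys, with KO noTrp at 1.54 to 2.28 and WT noTrp at 0.658 and 2.62, and KO noCys was not apart there. These ratios were chosen after their values were seen, and they have no test.

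**Figure D4:**
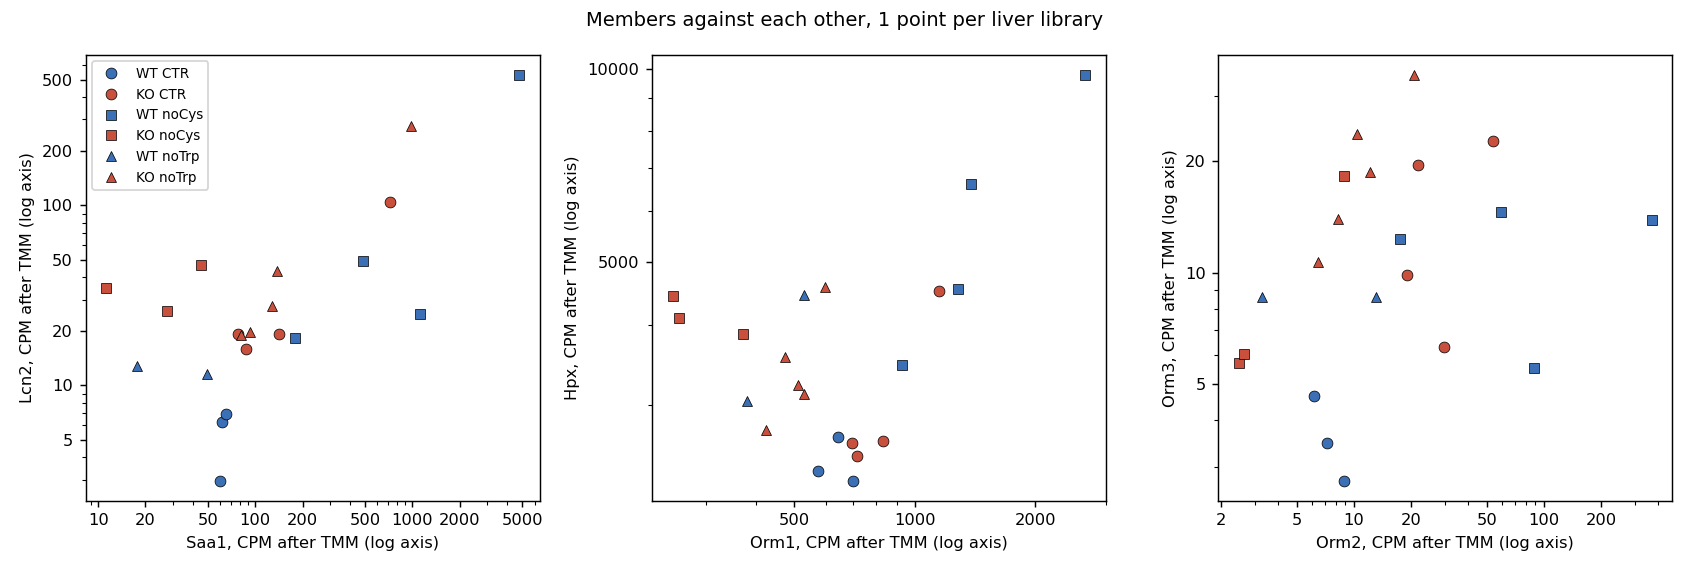
CPM after TMM of *Lcn2* against *Saa1*, *Hpx* against *Orm1* and *Orm3* against *Orm2* on log axes, 1 point per library (colour, genotype; shape, diet). The KO noCys squares lie at low *Saa1* (11.2 to 45.1 CPM) with *Lcn2* of 25.8 to 46.9 CPM, and at low *Orm1* (248 to 373 CPM) with *Hpx* of 3870 to 4430 CPM.

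The 2 inducible amyloids kept much the same proportion to each other in most livers. *Saa2* made up 25.0% to 29.2% of the *Saa1* and *Saa2* counts together in WT CTR, 23.5% to 33.6% in KO CTR, 27.6% and 29.9% in WT noTrp and 21.9% to 31.6% in KO noTrp. The 2 extremes were in the cysteine-free groups. In WT noCys replicate 1 the share was 45.2% (95% Wilson interval 45.0% to 45.5%, counting error only), and in KO noCys replicate 1 it was 8.47% (6.2% to 11.5%), from 37 *Saa2* counts. The other WT noCys livers had 27.0%, 36.3% and 25.2%, the second of them also above every liver of the 4 groups just given. The other KO noCys livers had 29.3% and 25.0%, so the low share was that of 1 library.

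On the control diet, KO livers tended to hold more of the members than WT livers, though no gene passed the test. All 10 fitted differences were above 0, with a median of 1.33 on the log2 scale against 0.00 over all genes. Called members numbered 0, beside 0.32% of all genes, and 4 (*Orm2*, *Orm3*, *Lcn2* and *Hp*) had an unadjusted p under 0.05, as did 9.59% of all genes. 6 members were higher in all 4 KO CTR libraries than in all 3 WT CTR libraries, a separation found for 5.39% of all genes.

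*Orm3* was nearest to a call, at 19.5, 6.32, 9.84 and 22.7 CPM in KO CTR and 2.75, 3.48 and 4.65 CPM in WT CTR (difference 1.99, SE 0.53, edgeR adjusted p = 0.125). *Lcn2* was at 19.2, 19.3, 16.0 and 105 CPM against 2.97, 6.26 and 6.97 CPM (2.86, SE 1.25, edgeR adjusted p = 0.456), and *Orm2* at 21.8, 29.8, 19.0 and 53.8 CPM against 8.90, 7.19 and 6.16 CPM (2.06, SE 0.78, edgeR adjusted p = 0.359). In each of these 3 genes every KO liver was above every WT liver. *Saa1* (2.04, SE 1.06, edgeR adjusted p = 0.553) and *Saa2* (2.34, SE 1.16, edgeR adjusted p = 0.536) leaned on KO CTR replicate 4, without which they were at 0.72 and 0.74. Without that liver 9 members were still higher, with a median of 0.59. *Saa3* was at 0.10 (SE 0.76, edgeR adjusted p = 0.986). DESeq2 and the fit with no filter on low counts each called 1 member, *Orm3*.

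Without tryptophan, KO livers held more *Saa1*, *Saa2* and *Lcn2* than the 2 WT livers, again short of the test. *Saa1* was at 978, 128, 138, 81.1 and 92.9 CPM in KO noTrp and 17.6 and 49.7 CPM in WT noTrp (difference 3.08, SE 1.30, edgeR adjusted p = 0.48). *Saa2* was at 275, 59.2, 50.03, 27.9 and 34.8 CPM against 6.71 and 21.2 CPM (2.69, SE 1.38, edgeR adjusted p = 0.603), and *Lcn2* at 277, 27.5, 43.2, 19.1 and 19.8 CPM against 12.7 and 11.6 CPM (2.68, SE 1.34, edgeR adjusted p = 0.592). The groups did not overlap for these genes or for *Orm3* and *Hp*, a separation found for 4.98% of all genes. Of the 10 members 9 were higher, with a median of 0.74, and 0 were called, beside 0.195% of all genes, with 3 at an unadjusted p under 0.05 (8.91% of all genes). Without KO noTrp replicate 1 the median was 0.49, with *Saa1* at 1.71, *Saa2* at 1.63 and *Lcn2* at 1.18. The 2 WT livers differed from each other by 3.11 times in *Saa4* (129 and 401 CPM). Without the first of them the median was 0.83, 9 members were higher and *Saa4* was at 0.35. Without the second the median was 1.23, 7 members were higher and *Saa4* was at 1.98. Either fit leaves 1 WT library, so only effect sizes are given.

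Leaving out tryptophan within a genotype gave no called member. In WT liver, WT noTrp against WT CTR gave 0 called members beside 3.19% of all genes, none at an unadjusted p under 0.05 (18.2% of all genes), and a median difference of 0.12, which was 0.39 without WT noTrp replicate 1 and -0.08 without replicate 2. 3 members (*Orm3*, *Lcn2* and *Hpx*) were higher and 3 (*Saa1*, *Saa2* and *Orm1*) lower without overlap, with 15.3% of all genes separated in each direction. *Saa1* stood at 17.6 and 49.7 CPM, under the 59.3 to 65.4 CPM of the controls (-0.89, SE 1.23, edgeR adjusted p = 0.755), and *Orm3* at 8.58 and 8.59 CPM, above their 2.75 to 4.65 CPM (1.25, SE 0.60, edgeR adjusted p = 0.278).

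In KO liver, KO noTrp against KO CTR gave 0 called members beside 1.87% of all genes, with a median difference of 0.15, which was 0.51 without KO CTR replicate 4 and -0.28 without KO noTrp replicate 1, and 2 members at an unadjusted p under 0.05 (16.9% of all genes). *Orm1* came nearest, at 596, 529, 472, 511 and 425 CPM against 830, 696, 718 and 1150 CPM, so that every tryptophan-deprived liver was under every control (-0.74, SE 0.23, edgeR adjusted p = 0.0942). It was called by 4 of 7 other analyses, DESeq2, limma-voom, no filter on low counts and the fit of only the groups compared, with adjusted p from 0.03 to 0.142 over the 7. *Orm2*, at 20.7, 12.2, 10.3, 8.20 and 6.49 CPM against 19.0 to 53.8 CPM, was at -1.40 (SE 0.61, edgeR adjusted p = 0.245). *Saa1* (0.15, SE 0.86) had a sign that turned with 1 liver, from -1.22 without KO noTrp replicate 1 to 1.47 without KO CTR replicate 4. The difference between genotypes in the response to tryptophan removal called 0 members and 0.0% of all genes by edgeR, with 821 genes at an unadjusted p under 0.05, and the members ran from -1.55 for *Orm2* to 1.04 for *Saa1*. DESeq2 also called 0 members.

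Between the 2 deprived KO groups, *Saa1*, *Saa2*, *Saa3*, *Saa4*, *Orm1* and *Hp* were lower without cysteine than without tryptophan in every library. That made 6 of 10 members, against 9.55% of all genes separated in this direction and 13.9% called in either. The differences were -3.37 (SE 1.11) for *Saa1*, -3.89 (SE 1.26) for *Saa2*, -1.43 (SE 0.79) for *Saa3*, -1.35 (SE 0.32) for *Saa4*, -0.79 (SE 0.26) for *Orm1* and -0.84 (SE 0.27) for *Hp*. *Hpx* was at 0.26 (SE 0.26) and *Lcn2* at -1.13 (SE 1.02), which became 0.37 without KO noTrp replicate 1. Without that liver *Saa1* was at -2.0 and *Saa2* at -2.83. The genotype difference without cysteine minus that without tryptophan was below 0 for all 10, with a median of -3.37, or -2.25 without WT noCys replicate 1. *Saa1*, *Saa2* and *Hp* were higher in every KO liver without tryptophan and lower in every KO liver without cysteine than in WT, as were 0.501% of all genes. These contrasts bear on how the members were proposed, and are described without a test.

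The signals that drive these genes were read from lists of general knowledge, written with earlier results of these data known. Calls and p-values of list genes, here and in the next paragraphs, are therefore a description and not independent evidence. The cytokine ligands were near the floor of detection: *Il6*, *Tnf*, *Osm*, *Lif*, *Il11* and *Il22* had at most 6 counts in any library and were not tested, and 0 of the 2 tested ligands were called in any comparison. Of 9 receptors, 2 rose and 3 fell in KO noCys against WT noCys, where 28.2% of all genes were called. The receptor of largest change was *Il22ra1*, an IL-22 receptor chain (2.14, edgeR adjusted p = 0.0448). It was near the floor of detection, at 1.03 ± 0.71 CPM (SD, n = 3) against 0.23 ± 0.29 CPM (n = 4). *Il6ra*, the IL-6 receptor chain, fell (92.6 ± 40.7 CPM, SD, n = 3, against 171 ± 39.9 CPM, n = 4, log2 difference -0.89, edgeR adjusted p = 0.024). Against KO CTR 1 of 9 was called, beside 20.2% of all genes: *Il10rb*, a chain of the IL-10 and IL-22 receptors, fell (-0.72, edgeR adjusted p = 0.00477).

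Among 13 transcription factors, kinases and feedback genes, 0 rose and 4 fell in KO noCys against WT noCys, a share near the 28.2% of all genes called there. They were *Jak2*, the C/EBP factor *Cebpb* (-0.78, edgeR adjusted p = 0.0224), and *Nfkbia* (-0.87, edgeR adjusted p = 0.00572) and *Nfkbiz* (-0.84, edgeR adjusted p = 0.0285), an inhibitor and a co-regulator of NF-κB. Against KO CTR 2 fell (*Jak2* and *Nfkbia*), beside 20.2% of all genes called in either direction. In WT noCys 0 of the 13 were called against WT CTR, where only 0.661% of all genes were called. In WT noTrp against WT CTR 1 of the 13 was called, beside 3.19% of all genes. This was *Socs3*, the STAT3 feedback inhibitor, which rose (43.6 ± 23.6 CPM, SD, n = 2, against 8.51 ± 2.54 CPM, n = 3, log2 difference 2.37, edgeR adjusted p = 0.00233). *Socs3* fell in KO noTrp against WT noTrp (-1.75, edgeR adjusted p = 0.0061), where 0.195% of all genes were called. Its link to the members was not tested.

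Of 23 other positive acute-phase genes, 2 rose and 10 fell in KO noCys against WT noCys, with a median of -0.46 and 28.2% of all genes called. The fallers included *Fgl1* (-1.62, edgeR adjusted p = 0.0263), *Serpina3n*, *Lrg1*, complement *C3* and fibrinogen *Fgb*. The pair that rose was *Apcs*, serum amyloid P (563 ± 81.8 CPM, SD, n = 3, against 159 ± 85.9 CPM, n = 4, log2 difference 1.83, edgeR adjusted p = 0.00119), and *Hamp*, the iron hormone hepcidin (1.92, edgeR adjusted p = 0.0126). Against KO CTR *Apcs* and *Hamp* rose and *Fgb*, *Lrg1* and *Steap4* fell, beside 20.2% of all genes called. In WT noCys against WT CTR, *Itih4* (1.08, edgeR adjusted p = 0.048) and *Mt1* (2.49, edgeR adjusted p = 0.0497) rose and 0 fell, with a median of 0.56 and 0.661% of all genes called.

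Negative acute-phase genes, which an acute-phase response lowers, moved in both directions. Of 13, 2 rose and 5 fell in KO noCys against WT noCys (28.2% of all genes called), among them albumin *Alb* (30286 ± 12611 CPM, SD, n = 3, against 67411 ± 4249 CPM, n = 4, log2 difference -1.15, edgeR adjusted p = 0.00108) and transferrin *Trf* (-2.03, edgeR adjusted p = 1.69e-05). Against KO CTR 3 rose and 4 fell (20.2% of all genes called), and 0 were called in WT noCys against WT CTR (0.661% of all genes called). Of 10 glucocorticoid-regulated genes, 5 fell in KO noCys against WT noCys, where 28.2% of all genes were called, led by *Dusp1* (-1.82, edgeR adjusted p = 0.00353) and *Tsc22d3* (-1.09, edgeR adjusted p = 0.0141). Against KO CTR 2 of the 10 were called, a share near the 20.2% of all genes called there: *Sgk1* rose (1.30, edgeR adjusted p = 0.0393) and *Hsd11b1* fell (-0.43, edgeR adjusted p = 0.0452). *Fkbp5* and *Dusp1* rose in WT noCys against WT CTR (1.46, edgeR adjusted p = 0.0305, and 2.28, edgeR adjusted p = 0.0261), beside 0.661% of all genes called. Both also rose in WT noTrp (n = 2) against WT CTR (1.56 and 2.52, edgeR adjusted p = 0.0186 and 0.0103), beside 3.19% of all genes called. Their link to the members was not tested. Of the 9 tested receptors and partners of the members, 2 were called in KO noCys against KO CTR, a share near the 20.2% of all genes. *Blvrb*, which acts on the bile pigment left from haem, rose by 0.70, and *Lrp1*, the hemopexin receptor, fell by 0.44 on the log2 scale.

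The genes whose pattern was most like that of the members were found by Pearson correlation of log2 CPM with the members' mean standardised log2 CPM over the 21 libraries, as a description. They were *Serpina3n*, an acute-phase protease inhibitor (r = 0.90), *Tmem176b* (r = 0.84), *Fgl1*, a liver-secreted fibrinogen-like protein (r = 0.83), *Lrg1*, an acute-phase glycoprotein (r = 0.83), and *Prtn3* (r = 0.83). *Serpina3n*, *Fgl1* and *Lrg1* were among the acute-phase list above. Without the livers WT noCys 1 and KO noTrp 1, r over the remaining 19 was 0.87 for *Serpina3n*, 0.79 for *Tmem176b*, 0.70 for *Fgl1*, 0.73 for *Lrg1* and 0.79 for *Prtn3*. *Prtn3* reached only 5.89 CPM. The members' own r with that mean ran from 0.58 for *Orm3* and 0.69 for *Hpx* to 0.97 for *Saa1* and *Hp*.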

How the data were processed

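Liver poly(A) RNA was profiled by paired-end sequencing in 21 libraries of 6 groups, grouped and numbered by their titles as biological replicates. The authors aligned reads to GRCm38 with HISAT2 2.1.0 and counted them per gene with HTSeq 0.11.0, per the submitters' processing notes, and deposited the raw counts, which carry no scaling. The annotation release and strand setting were not given in the sources used here. Left out was 1 column whose name fits none of the samples. Rows held 46078 gene identifiers, of which 45229 were in GENCODE M21, and 0 summary lines.

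Counts were fitted with edgeR 4.0.16 in R 4.3.3: filterByExpr (minimum count 10, minimum total 15) left 14370 genes of 26504 with any count, TMM factors were 0.883 to 1.14, and a one-way model over all 21 libraries was tested with two-sided quasi-likelihood F-tests, adjusted by Benjamini-Hochberg over the 14370 genes. A gene was called at an adjusted p under 0.05, and SE is the log2 fold change over the root of F. If the replicates were not separate animals, the p-values would measure technical spread only.

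The members and lists were chosen with earlier results of these data known, so no p of a member is given in KO noCys against KO CTR, whose planned test is printed as counts past the threshold only, nor in 5 contrasts that bear on that choice: KO noCys against WT noCys, WT noCys against WT CTR, KO noCys against KO noTrp, and 2 differences between differences. Besides all 10 members, the text names by rule up to 3 called genes of largest change per list and comparison, and the 5 genes most correlated with the members; other list genes were named after their values were seen. The genes of the factor list that rose in KO noCys against KO CTR are not reported here. Cell type markers are summed CPM of unscaled totals, and CPM per kilobase divides by the length of the transcript with the longest coding sequence. Alternatives were DESeq2 1.42.0, limma-voom (limma 3.58.1) with quality weights, RLE factors, library totals alone, no filter, a fit of the compared groups alone, a block on the replicate number, and omission of each library in turn. The depth of each library sets the counting error, which Wilson intervals (95%) cover for the *Saa2* share.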

Additional observations from a re-analysis of the deposited data

Results flagged for a closer look

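4 of the 30 combinations of a member with a group of 4 or 5 libraries held a library far from the others by Dixon's test on log2 CPM, which chance flags in about 1 of 20. They were *Saa1* at 978 CPM in KO noTrp replicate 1, *Lcn2* at 105 CPM and *Hpx* at 4510 CPM in KO CTR replicate 4, each above its group, and *Orm3* at 5.52 CPM in WT noCys replicate 2, below it. KO noTrp replicate 1 and KO CTR replicate 4 were also the highest of their groups for 9 and 10 of the 10 members.

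6 members moved in opposite directions when cysteine was left out, with every WT noCys library above WT CTR and every KO noCys library below KO CTR, as did 0.828% of all genes. The KO difference minus the WT difference was -7.94 for *Saa1*, -9.94 for *Saa2*, -4.07 for *Saa3*, -1.76 for *Saa4*, -2.83 for *Orm1* and -7.04 for *Orm2* on the log2 scale, and this difference was not tested.

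3 members had every KO library above WT without tryptophan and every KO library below WT without cysteine, as did 0.501% of all genes. The genotype difference without cysteine minus that without tryptophan was -8.98 for *Saa1*, -10.29 for *Saa2* and -1.68 for *Hp*, and it was not tested. WT noTrp has 2 libraries.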

How the results depend on the processing

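Members called were 1 instead of 0 in KO CTR against WT CTR by DESeq2 and with no filter on low counts (*Orm3*), and 1 instead of 0 in KO noTrp against KO CTR by DESeq2, limma-voom, no filter and the fit of only the groups compared (*Orm1*). With single libraries left out, the number past the threshold ran from 1 to 5 in KO noCys against KO CTR (5 with all). In KO noTrp against WT noTrp (0 with all), leaving out a WT library left 1, which had to be assumed to vary like other groups. No calls are given for those fits. The median difference ran from 1.29 to 2.44 in WT noCys against WT CTR, from -3.72 to -2.33 for the diet difference in KO minus WT, and from -3.93 to -2.25 for the genotype difference without cysteine minus without tryptophan. *Lcn2* in KO noCys against WT noCys went from -2.13 to 0.22 without WT noCys replicate 1, and was -2.50 without WT noCys replicate 4. Under the other scalings (RLE and library totals), no count of members called moved by over 1.5 times. In KO noCys against KO CTR, *Hp* was also past the threshold by DESeq2 and limma-voom and *Saa3* in the fit of only the groups compared, while *Saa2* was not by limma-voom, nor *Saa4* with library totals. The causes were not tested.

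Same-numbered libraries share only a number, since the correlations of their deviations from group means ran from -0.355 to 0.353 and were not all positive. With the replicate number as a block, 4 members instead of 5 (without *Saa4*) were past the threshold in KO noCys against KO CTR and 0 in the other 5 tested comparisons. The lowest counts in a library were 24 for *Saa3*, 26 for *Orm3*, 28 for *Lcn2*, 37 for *Saa2* and 41 for *Orm2*.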
